A study of Mus musculus with 6 samples.

Results

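Cathepsins are the proteases of the lysosome, and 10 of their genes were followed here in whole kidneys of mice with and without the transferrin receptor in part of the nephron. The genes were chosen by name as *Ctsa*, *Ctsb*, *Ctsc*, *Ctsd*, *Ctsh*, *Ctsk*, *Ctsl*, *Ctss*, *Ctsw* and *Ctsz*, and all 10 were found among the 24422 genes listed and passed the filter on low counts that left 15171 genes. Poly-A RNA of kidneys from C57BL/6 mice at postnatal day 60 was sequenced in 3 control (wild type) and 3 TfR1KO;KspCre libraries, all from mice on a diet with 220 ppm iron. In TfR1KO;KspCre mice, exons 3 and 4 of the transferrin receptor gene *Tfrc* (TfR1) are flanked by recombination sites and are removed by a Cre recombinase under the Ksp-cadherin promoter, which is active in the thick ascending limb, the distal convoluted tubule and the collecting duct. Libraries of the second genotype are called knockout below, although cells outside these segments keep the gene. RNA came from whole kidney, so that more cells of a type and more RNA per cell cannot be told apart.

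Most cathepsins are made as inactive precursors, are carried to endosomes and lysosomes by mannose 6-phosphate receptors and are activated there in acid. Proximal tubule cells take up filtered protein by endocytosis and degrade it with a large lysosomal system, in which cathepsins B, D, H and L and the carboxypeptidase cathepsin A are well known. Other cathepsins are better known from leukocytes and bone: cathepsin S from antigen-presenting cells, cathepsin C from cells with protease granules, cathepsin K from osteoclasts, cathepsin W from natural killer and CD8 T cells, and cathepsin Z from myeloid cells. The 10 genes were grouped by this background into 5 tubular (*Ctsa*, *Ctsb*, *Ctsd*, *Ctsh*, *Ctsl*) and 5 leukocyte (*Ctsc*, *Ctsk*, *Ctss*, *Ctsw*, *Ctsz*) cathepsins. The grouping is a working name and was not derived from these libraries.

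Libraries held 11501053 to 21001341 counts, the smallest being knockout 3, in which the ribosomal RNA gene *Rn45s* also took 2.59% of counts against 0.506% to 0.745% in the other 5. Control 2 differed from the other 5 libraries in sex-linked transcripts, with 52 counts of *Xist* against 10458 to 23845 and 3980 counts over 4 Y-linked genes against at most 5. Knockout 1 was the knockout nearest to the controls in the summed macrophage and proximal tubule markers. *Tfrc* itself stood at 138, 168 and 62.0 CPM (counts per 1e6 reads of a library) in controls 1 to 3 and at 214, 86.0 and 40.6 CPM in knockouts 1 to 3, with a log2 fold change of -0.11 (edgeR adjusted p = 0.911). Reads outside the deleted exons and from cells without Cre still count, so *Tfrc* gave no check of the labels. All log2 fold changes are knockout over control, CPM are TMM-normalised, and adjusted p-values come from the quasi-likelihood test of edgeR, adjusted by Benjamini and Hochberg's method over the 15171 genes.

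Short stretches of promoter are shown for the 4 cathepsins whose upstream window held a sequence recognised by a regulator of lysosomal or leukocyte genes, so that they can be read beside the values that follow. Windows were the 250 bases before each RefSeq start on GRCm38.p6, and 7 of the 10 genes matched an entry (all but *Ctsb*, *Ctsh* and *Ctsw*). Both strands were searched for TCACGTG (the core of the CLEAR element bound by TFEB), GAGGAAGT (a core bound by PU.1) and the core of the interferon-stimulated response element, which is GAAA, any 2 bases and GAAA. The capitals mark the matches on either strand.
Ctsd, chr7:142387895-142388077, minus strand: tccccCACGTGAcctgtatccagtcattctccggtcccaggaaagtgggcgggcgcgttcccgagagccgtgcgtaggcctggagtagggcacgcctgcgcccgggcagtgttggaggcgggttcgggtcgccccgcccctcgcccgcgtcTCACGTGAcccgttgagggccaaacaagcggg
Ctsa, chr2:164833736-164833772, plus strand: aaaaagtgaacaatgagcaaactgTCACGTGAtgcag
Ctss, chr3:95526741-95526785, plus strand: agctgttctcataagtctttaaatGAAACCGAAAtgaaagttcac
Ctsc, chr7:88277910-88277965, plus strand: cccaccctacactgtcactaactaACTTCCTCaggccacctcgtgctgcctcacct
The *Ctsd* window held 2 CLEAR cores, at 245 and 99 bases upstream, and the second of 2 *Ctsa* windows held 1 at 13 bases upstream. *Ctss* held 1 response element core at 21 bases upstream and *Ctsc* 1 PU.1 core at 151 bases. Over all 32851 windows of this length, 3.13% held TCACGTG, 2.98% held the response element core and 2.44% held GAGGAAGT. The windows of *Ctsk*, *Ctsl* and *Ctsz* held none of the 3.

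Across the 10 cathepsins, 5 were higher in knockout kidneys, and none was lower. Among all genes tested 17.2% were called in either direction, made up of 10.6% higher and 6.64% lower. The 5 were *Ctsd*, *Ctsc*, *Ctsk*, *Ctss* and *Ctsw*, which is 1 of the 5 tubular and 4 of the 5 leukocyte cathepsins. The median log2 fold change was -0.35 over the tubular and 2.60 over the leukocyte cathepsins, against 0.02 over all genes tested. Without knockout 2 the leukocyte median was 1.60. *Ctsw* held 9 counts in control 2 and passed the filter only with the knockouts counted. With at least 10 counts in every library *Ctsw* was not tested, 3 of 4 leukocyte cathepsins were higher and their median was 2.39. In each of the 5 called genes every knockout library lay above every control library, which was so for 23.8% of all genes tested. In the other 5 genes the groups overlapped. The calls depended on which libraries entered the fit. Leaving out knockout 1 kept all 5, with adjusted p from 0.0029 to 0.0179, in a fit that called 2788 of 15494 genes higher and 2544 lower. Leaving out any 1 control, or knockout 3, left 0 of the 5 edgeR calls (all 5 kept an unadjusted p under 0.05 there, and between 0 and 2 genes of the whole table were called), and leaving out knockout 2 left those of *Ctsc* and *Ctss*. With the ratio of *Xist* to Y-linked transcripts as a covariate none of the 5 passed (edgeR adjusted p from 0.111 to 0.143, each with an unadjusted p under 0.05).

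**Figure D1:**
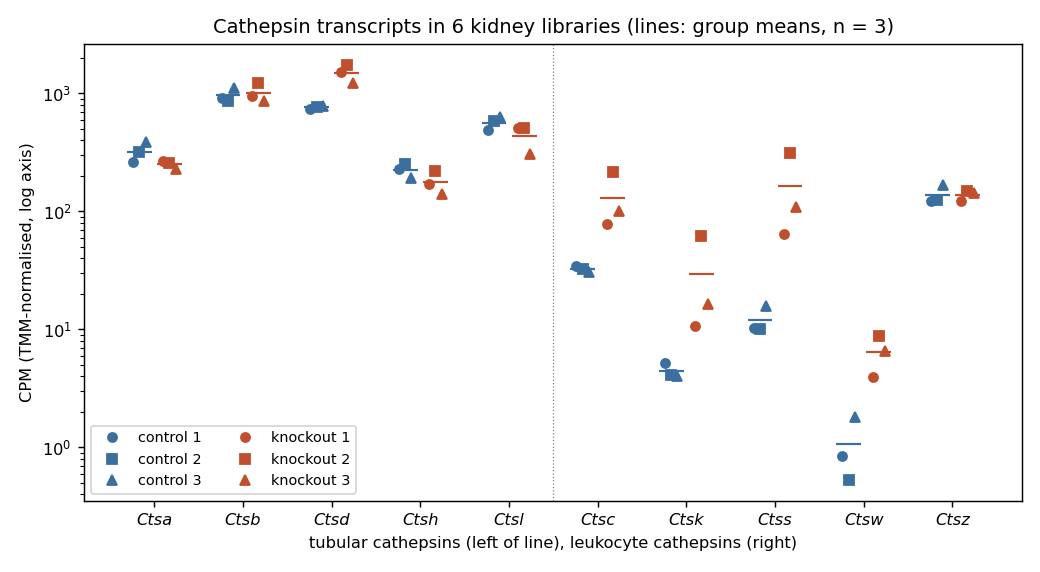
TMM-normalised CPM on a log axis of the 10 cathepsins in each of the 6 libraries (blue, control; orange, knockout; symbols, replicate number; lines, group means, n = 3). The groups do not overlap in *Ctsd*, *Ctsc*, *Ctsk*, *Ctss* and *Ctsw*, and knockout 2 is the highest library in all 5.

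Of the tubular cathepsins, *Ctsd* was the one that rose. It encodes cathepsin D, an aspartic endopeptidase and one of the main proteases of the lysosome. It was measured at 732, 765 and 787 CPM in controls and at 1530.5, 1749 and 1219 CPM in knockouts, that is 761 ± 27.5 against 1500 ± 266 (SD, n = 3 each). The controls lay close together and each knockout library was far above them, knockout 3, the library with most *Rn45s*, being the lowest. This is a 1.97-fold change, or 0.98 on the log2 scale (SE 0.24, edgeR adjusted p = 0.0396). The call was lost with the newer version of the quasi-likelihood test (adjusted p = 0.0533) and without control 2 and knockout 1 together (adjusted p = 0.0570), at nearly the same fold change. Exons of *Ctsd* overlap those of *Ifitm10* on the same strand, and reads in the shared part may be lost from both, which makes its count uncertain. *Ifitm10* itself held 6 to 12 counts in controls and 32 to 55 in knockouts, and passed the filter only with the knockouts counted. It was called higher by 2.19 on the log2 scale (edgeR adjusted p = 0.0309).

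The tubular cysteine endopeptidases did not pass the test. *Ctsb*, encoding cathepsin B, stood at 911, 856 and 1116 CPM in controls and at 952, 1221 and 858 CPM in knockouts. The groups overlapped over nearly their whole range, and the log2 fold change of 0.07 had a 95% interval from -0.51 to 0.65 (edgeR adjusted p = 0.848). *Ctsl*, encoding cathepsin L, stood at 486, 582 and 626 CPM in controls and at 505, 505 and 309 CPM in knockouts. Knockouts 1 and 2 lay within the control range of *Ctsl* and knockout 3 below it, for a log2 fold change of -0.36 with an interval from -0.96 to 0.24 (edgeR adjusted p = 0.325). These intervals leave room for changes in either direction and do not show that the levels were equal.

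The aminopeptidase *Ctsh* and the serine carboxypeptidase *Ctsa* had similar fitted values. *Ctsh* was measured at 229, 254 and 193 CPM in controls and at 172, 219 and 141 CPM in knockouts, where knockout 2 lay inside the control range and the other knockouts below it. Knockout 3 was the lowest in *Ctsh* and *Ctsl* too, and the part of its library quality was not tested. For *Ctsh* the log2 fold change was -0.35 with an interval from -0.84 to 0.15 (edgeR adjusted p = 0.265). *Ctsa*, whose product also protects lysosomal beta-galactosidase and neuraminidase, was measured at 261, 317 and 385 CPM in controls and at 265, 259 and 228 CPM in knockouts. Control 1 of *Ctsa* lay among the knockouts, and the log2 fold change of -0.36 had an interval from -0.82 to 0.10 (edgeR adjusted p = 0.216). *Ctsa* shares exon sequence on the opposite strand with *Neurl2* and with *Pltp*, which encodes the phospholipid transfer protein and was called higher by 2.09 on the log2 scale (edgeR adjusted p = 0.0316). *Ctsb* shares exon sequence with *Fdft1* and *Ctsz* with *Nelfcd* in the same way, so that with *Ctsd* there are 4 cathepsins whose counts are uncertain for this reason.

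Of the leukocyte cathepsins, *Ctss* differed most. Its product, cathepsin S, is the cysteine protease that trims the invariant chain from MHC class II molecules in antigen-presenting cells. It stood at 10.3, 9.99 and 15.8 CPM in controls and at 63.8, 314.0 and 110.0 CPM in knockouts. The lowest knockout library was several times the highest control, and knockout 2 alone lay well above the other knockouts. The 13.5-fold change, 3.76 on the log2 scale (SE 0.62, edgeR adjusted p = 0.0278), ranked 98 from the top of the 15171 genes. Without knockout 2 it was 2.85 (edgeR adjusted p = 0.0442).

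*Ctsc* encodes dipeptidyl peptidase 1, which activates the serine proteases of leukocyte granules. It was measured at 34.2, 32.6 and 30.9 CPM in controls and at 78.8, 214.6 and 99.8 CPM in knockouts. Controls of *Ctsc* spanned a narrow range and all knockouts lay above it, a 4.02-fold change or 2.01 on the log2 scale (SE 0.37, edgeR adjusted p = 0.0301). *Ctsk*, whose product cleaves collagen in bone resorption, stood at 5.22, 4.11 and 4.02 CPM in controls and at 10.6, 61.3 and 16.5 CPM in knockouts. The size depended on knockout 2: the log2 fold change was 2.73 (SE 0.66, edgeR adjusted p = 0.0396) with all libraries and 1.60 (adjusted p = 0.0630) without knockout 2. With limma-voom it was not called (adjusted p = 0.103).

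*Ctsw*, a cathepsin of cytotoxic lymphocytes, rested on few reads, with 17, 9 and 30 counts in controls and 80, 174 and 86 counts in knockouts, or 0.85, 0.53 and 1.801 CPM against 3.93, 8.73 and 6.59 CPM. All knockouts were above all controls of *Ctsw*, and the log2 fold change was 2.60 (SE 0.54, edgeR adjusted p = 0.0324) or 6.05-fold. Without control 3, the control with most *Ctsw* counts, the log2 fold change was 3.20. *Ctsz*, a carboxypeptidase of myeloid cells, stood at 124, 125 and 166 CPM in controls and at 121, 148 and 142 CPM in knockouts. Its groups overlapped, with a log2 fold change of -0.01 and an interval from -0.42 to 0.40 (edgeR adjusted p = 0.972). The values of *Ctsz* thus did not follow those of the other 4 genes with which it was grouped.

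**Figure D2:**
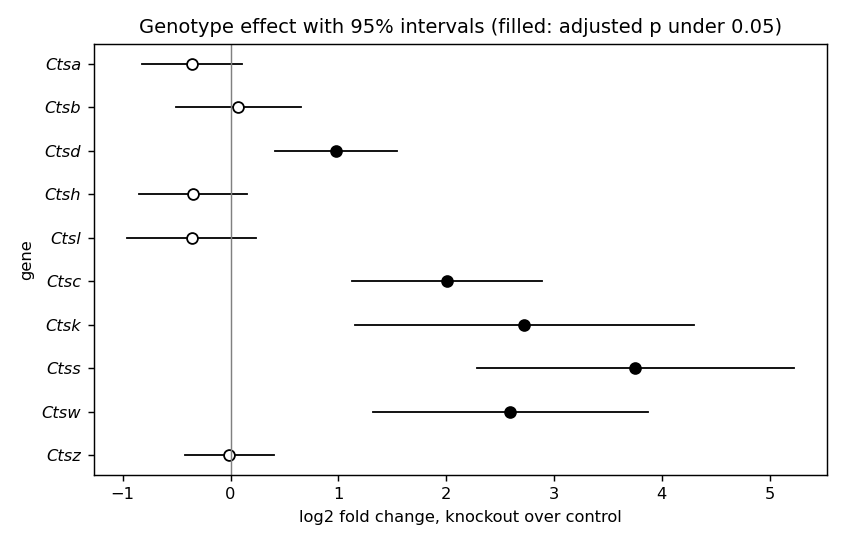
Log2 fold change of knockout over control for each cathepsin with its 95% interval from the quasi-likelihood fit (filled points, adjusted p under 0.05; open points, not called). The 5 called genes lie from 0.98 for *Ctsd* to 3.76 for *Ctss*, and the intervals of the other 5 include 0.

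To compare genes in the same kidney, log2 ratios of CPM were taken within each library. *Ctss* was set against the tubular *Ctsl*, and *Ctsd* and *Ctsl*, both tubular, were set against each other. These pairs were chosen after their values were seen. The ratio of *Ctss* to *Ctsl* was -5.54, -5.85 and -5.30 in controls and -2.98, -0.69 and -1.49 in knockouts, a difference of 3.84, which is close to the change of *Ctss* itself. The ratio of *Ctsd* to *Ctsl* was 0.59, 0.39 and 0.33 in controls and 1.60, 1.79 and 1.98 in knockouts, a difference of 1.35. For both pairs the groups did not overlap and the two-sided exact permutation p was 0.10, the smallest that 3 against 3 libraries allow. Set against the macrophage marker *Cd68* and against *Cd74*, *Ctss* overlapped between the groups (differences 0.82 and 0.85, exact permutation p = 0.20 each). Against the macrophage marker *Csf1r* it did not overlap (3.31, exact permutation p = 0.10). The ratios to *Ctsl* restate the rises of *Ctss* and *Ctsd* given before, and all of these ratios are a description.

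Levels of different genes were compared per kilobase of the longest protein-coding transcript. In controls the order was *Ctsd* (358 CPM per kb), *Ctsl* (287), *Ctsb* (203), *Ctsh* (139), *Ctsz* (95.8), *Ctsa* (87.4), *Ctsc* (13.1), *Ctss* (8.89), *Ctsk* (3.01) and *Ctsw* (0.86). Of neighbours in this order, *Ctsz* and *Ctsa* overlapped over their 3 libraries, and the others did not. The 5 tubular cathepsins and *Ctsz* were thus the abundant ones in control kidney. In knockouts *Ctsd* led at 705 CPM per kb, clear of the next, and *Ctss* stood at rank 4 with 120 CPM per kb, in a run from *Ctsl* to *Ctsz* in which each neighbour overlapped the next. *Ctsa*, *Ctsc* and *Ctsk* followed at 68.2, 52.6 and 19.9 CPM per kb, each overlapping the next, and *Ctsw* was last at 5.21. The order depends on the transcript length used: with the median length of each gene's protein-coding transcripts, *Ctsa* moved from rank 6 to 3 in controls and *Ctss* stood at rank 6 in knockouts.

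The make-up of the summed level of the 10 cathepsins shifted accordingly. *Ctsd* made up 31.1%, 30.2% and 28.7% of the summed CPM per kb in controls and 47.1%, 40.9% and 44.2% in knockouts. *Ctss* made up 0.690%, 0.620% and 0.903% in controls and 3.08%, 11.5% and 6.26% in knockouts. In both genes the shares of the groups did not overlap. The 5 leukocyte cathepsins together held 10.1%, 9.28% and 11.1% in controls and 11.3%, 23.3% and 18.2% in knockouts. Knockout 1 was barely above control 3. *Ctsl* held 22.3% to 24.8% in controls and 12.1% to 16.8% in knockouts, although its own level did not pass the test. These shares also depend on the transcript length used: with the median length *Ctsa* stood at 334 instead of 87.4 CPM per kb in controls.

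**Figure D3:**
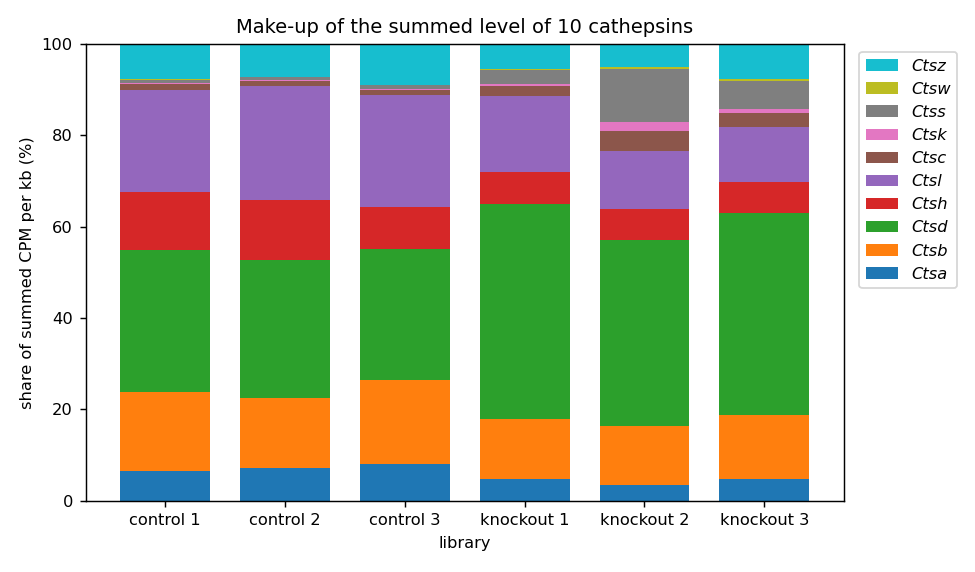
Share (%) of the summed CPM per kilobase (longest protein-coding transcript) of the 10 cathepsins that each gene held, per library. *Ctsd* takes 28.7% to 31.1% of each control bar and 40.9% to 47.1% of each knockout bar, and *Ctss* rises from under 1% to between 3.08% and 11.5%.

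Markers of other cell types moved with the cathepsins. Of 18 macrophage markers, 16 were called higher (10 without knockout 2), and their summed CPM was 295 to 307 in controls against 828, 2915 and 1158 in knockouts 1 to 3. Knockout 2 was highest and knockout 1 lowest in this sum, which is also the order of the knockouts in *Ctss*, *Ctsc*, *Ctsk* and *Ctsw*. The order is not particular to macrophages: the sums of the cytotoxic lymphocyte, fibroblast, MHC class II and inhibitor lists given below had it too. Among the defining macrophage markers *Cd68* was higher by 2.69 and *Lyz2* by 3.99 on the log2 scale (edgeR adjusted p = 0.0295 and 0.0277). The receptors *Csf1r* (0.28, adjusted p = 0.601) and *Mertk* (-0.34, adjusted p = 0.235) were not called. No macrophage marker was at 0 in all libraries, and the part of macrophage number in the cathepsin values was not tested.

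For *Ctsw* the list of cytotoxic lymphocyte markers was set beside it: 12 of 16 were tested, 7 were higher (1 without knockout 2, 4 with limma-voom) and none lower, and several of the 7 passed the filter only through the knockouts, since with at least 10 counts in every library 2 were tested and 1 was higher. The summed level of the list was 6.82 to 9.73 CPM in controls and 25.2 to 69.0 CPM in knockouts. For *Ctsk*, 5 of 7 osteoclast markers were tested and 2 were higher, *Dcstamp* and *Calcr* (none without knockout 2), of which *Dcstamp* held 1 count in each control and passed the filter through the knockouts. With at least 10 counts in every library 3 osteoclast markers were tested and none was called by edgeR, while *Acp5*, the tartrate-resistant acid phosphatase of osteoclasts, was at -0.54 (edgeR adjusted p = 0.105). The osteoclast sums overlapped between groups, at 86.7 to 141 CPM in controls and 114 to 159 CPM in knockouts. Fibroblasts can also make cathepsin K, and of 8 fibroblast markers the collagens *Col1a1*, *Col1a2* and *Col3a1* were higher (none without knockout 2, 7 of the 8 without knockout 1), with sums of 301 to 653 CPM in controls and 982 to 3798 CPM in knockouts. The part of these cells in *Ctsk* and *Ctsw* was not tested.

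Proximal tubule markers went the other way. Of 17, 12 were lower and none higher, and their sum was 22933 to 52864 CPM in controls and 3488 to 10773 CPM in knockouts. Without knockout 2 none of the 17 was called, and without knockout 1 the count was 16. *Kap*, an androgen-regulated gene, held 31293 CPM of the sum in control 2, and without it the sums were 16753 to 23330 CPM in controls and 3013 to 9234 CPM in knockouts. *Lrp2*, which encodes the endocytic receptor megalin, fell by 2.42 on the log2 scale (edgeR adjusted p = 0.0326). Relative to *Lrp2* in the same library, *Ctsb* stood at -1.39, -1.82 and -1.27 in controls and at 0.084, 1.74 and 1.797 in knockouts on the log2 scale, a difference of 2.70. *Ctsl* relative to *Lrp2* differed by 2.25 and *Ctsh* by 2.28 on this scale. These differences contain the fall of *Lrp2* itself and are given as a description. Which cells held the cathepsin transcripts was not tested. Of 8 thick ascending limb and distal tubule markers 1 was lower (*Pvalb*), and of 8 collecting duct markers none was called by edgeR. These are the segments in which Cre is active, and without knockout 1 the counts of lower markers were 5 (median -1.99 against -0.96 with all libraries) and 2. The fit without knockout 1 called 2544 of 15494 genes lower, against 1008 of 15171 with all libraries.

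**Figure D4:**
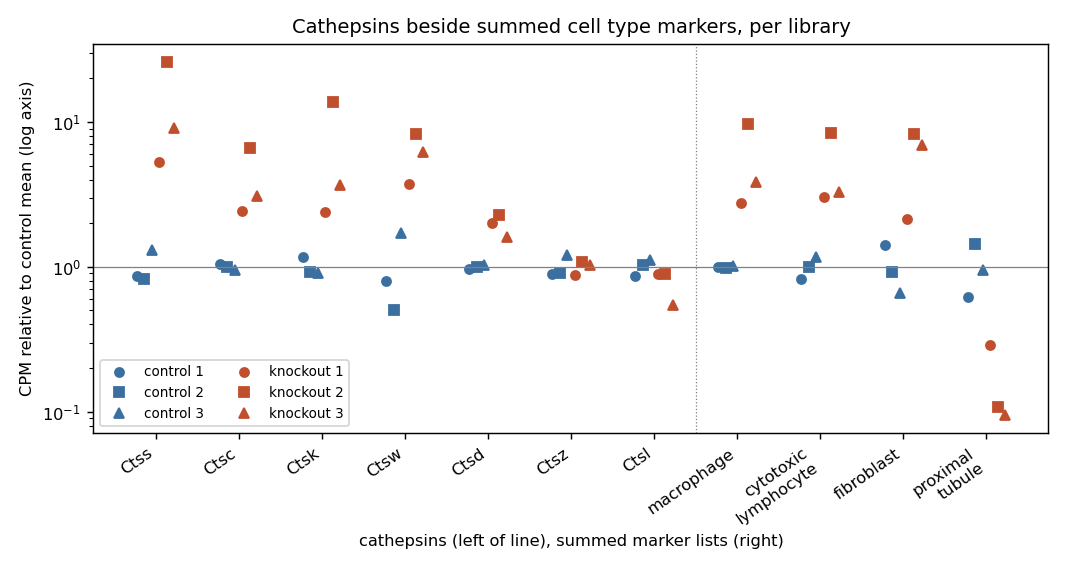
CPM relative to the control mean on a log axis, per library, for 7 cathepsins and for the summed CPM of 4 marker lists. *Ctss*, *Ctsc*, *Ctsk* and *Ctsw* have the same order of knockouts (2, 3, 1) as the macrophage, cytotoxic lymphocyte and fibroblast sums. *Ctsd* is 1.60 to 2.30 times its control mean in the knockouts, *Ctsz* and *Ctsl* overlap the controls, and the proximal tubule sum is lower in all knockouts.

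The partners of the cathepsins in antigen presentation rose with *Ctss*. Of 11 genes of MHC class II processing, 10 were higher (median log2 fold change 2.45). Counts were 11 without knockout 1, 5 without knockout 2, 9 without control 2 and knockout 1 together, and 0 with the covariate for sex-linked transcripts. *H2-Oa* (9, 2 and 8 counts in controls) and *H2-DMb2* (8, 6 and 15) passed the filter through the knockouts. With at least 10 counts in every library 9 of these genes were tested, 8 were higher and the median was 2.22. *Cd74*, the invariant chain that cathepsin S cleaves, stood at 172, 167 and 206 CPM in controls and at 869, 1622 and 935 CPM in knockouts, a log2 fold change of 2.65 (edgeR adjusted p = 0.0271). *Ciita*, the class II transactivator, was higher by 2.20, and the lysosomal thiol reductase *Ifi30* by 0.53. *H2-Ob* alone was not called (1.45, adjusted p = 0.0648). Of 12 granule serine proteases that cathepsin C can activate, 6 were tested and edgeR as reported called none. DESeq2, limma-voom, the newer quasi-likelihood version and scaling by library size alone called 1 each. The nearest in edgeR was *Prtn3* with under 1 CPM in every library (2.84, adjusted p = 0.0541). *Prtn3* held 0, 1 and 4 counts in controls and passed the filter through the knockouts. With at least 10 counts in every library 1 protease was tested, at 0.05, and was not called. The summed level of these 12 proteases was 1.70 to 5.16 CPM in controls and 3.39 to 6.67 CPM in knockouts.

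Inhibitors of cathepsins were higher in part. Of 13 listed, 6 had enough counts to be tested, 4 were higher and none lower, with a median log2 fold change of 1.27. The count higher was 0 without knockout 2, 7 of 7 without knockout 1, 1 with limma-voom and 6 with DESeq2. *Cst7*, the gene added without knockout 1, held 2 counts in each control and passed that filter through the knockouts. The cytosolic inhibitor cystatin B (*Cstb*) was higher by 0.45, *Ctla2a*, which resembles a cathepsin propeptide, by 1.06, and the serpins *Serpinb6b* and *Serpina3g* by 2.13 and 4.05 (edgeR adjusted p = 0.0457, 0.0466, 0.0271 and 0.0305). *Cst3*, encoding the secreted inhibitor cystatin C, stood at 288, 234 and 307 CPM in controls and at 357, 489 and 388 CPM in knockouts. These groups of *Cst3* did not overlap, but its log2 fold change of 0.57 did not pass the test (edgeR adjusted p = 0.0867). *Ctla2a* and *Serpina3g* have close copies in the mouse genome, and unique mapping may lower or split their counts.

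Among genes that deliver and mature cathepsins and of the rest of the lysosome, calls went in both directions and are to be read against the 10.6% higher and 6.64% lower of all genes tested. Of 10 genes of maturation and sorting, *Grn*, whose product is a partner of cathepsin D in the lysosome, was higher by 0.59 (edgeR adjusted p = 0.0414), and *Igf2r*, the cation-independent mannose 6-phosphate receptor, was lower (-0.70, adjusted p = 0.0414). The asparaginyl endopeptidase *Lgmn*, which processes cathepsins B, H and L, was at -0.68 (adjusted p = 0.109). Of 20 other lysosomal hydrolases 1 was higher (*Hexa*, 1.06) and 3 were lower (*Glb1*, -1.07; *Lipa*, -1.31; *Arsb*, -1.32), with a median of -0.32. Counts of lower hydrolases were 6 without knockout 1 and 7 with DESeq2, fits that called 2544 of 15494 and 2281 of 15171 genes lower. The count was 0 without any 1 control, without knockout 2, without knockout 3 and with the covariate for sex-linked transcripts. *Glb1* encodes the beta-galactosidase that cathepsin A protects.

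Of 16 genes of the lysosomal membrane and proton pump 1 was higher, *Tcirg1* (1.40), with a median of -0.31. In this list 4 were lower without knockout 1 and 5 with DESeq2, fits that called 2544 of 15494 and 2281 of 15171 genes lower. The transcription factors *Tfeb* (0.06, adjusted p = 0.866) and *Tfe3* (0.39, adjusted p = 0.0591), which bind the CLEAR element printed for *Ctsd* and *Ctsa*, were not called by edgeR as reported, nor were the other 2 of the 4 regulators listed. Of the 4, 1 was called higher with upper quartile scaling, with library size alone and without knockout 1, and DESeq2 called 1 higher and 1 lower. *Ctsd* with 2 cores was higher and *Ctsa* with 1 was not called. Among 12 further cathepsin genes 8 had 0 counts in all libraries and 3 were tested with none called by edgeR as reported (1 was lower without knockout 1): *Ctsf* was at -0.50 (adjusted p = 0.103), *Ctso* at 0.20 and *Ctse* at 1.10.

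Genes with the pattern most like each cathepsin were found by Pearson's r of log2 CPM over the 6 libraries, among 11327 tested genes whose log2 CPM averaged 3 or more. The 6 libraries fall into 2 groups, so for a gene that differs between them r in part reads that difference, and it is a description. *Ctss* was most like *Hcls1*, *Ncf1* and *Myo1f* (each r = 0.999), *Ctsc* like *Osmr*, *Basp1* and *Cmtm3*, *Ctsk* like *Eya2*, *C1ra* and *Stk17b*, and *Ctsw* like *Cbr3*, *Rfc3* and *Ralgds*. *Ctsd* was most like *Plk2*, *Sprr2g* and *Ciita*. An r above 0.95 was reached by 451 genes for *Ctss*, 450 for *Ctsc*, 346 for *Ctsk* and 333 for *Ctsw*, by 79 for *Ctsd* and, among cathepsins that were not called, by 69 for *Ctsh*, 27 for *Ctsa*, 25 for *Ctsl* and 12 for *Ctsz*. *Ctsz* was most like *Rpl35a*, *Btf3* and *Naca*, and *Ctsb* had 1 gene over that level, *Srpk2*.

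The position of each gene is given on NCBIM37 (mm9). *Ctss* lies at chromosome 3, 95330708 to 95360325, and *Ctsk* at 95303208 to 95313284 on the same chromosome and strand, so that these called cathepsins are neighbours. *Ctsd* lies at chromosome 7, 149557053 to 149573943, and *Ctsc* at chromosome 7, 95426595 to 95459398. *Ctsw* lies at chromosome 19, 5465240 to 5468498. All words of 100 bases in the longest transcripts of these 5 genes were found in no protein-coding transcript of another gene, on either strand. Non-coding genes and pseudogenes were not searched, and trimmed reads and reads aligned with mismatches were not tested. The exons of *Ctss*, *Ctsk*, *Ctsc* and *Ctsw* overlap no other gene.

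**Figure D5:**
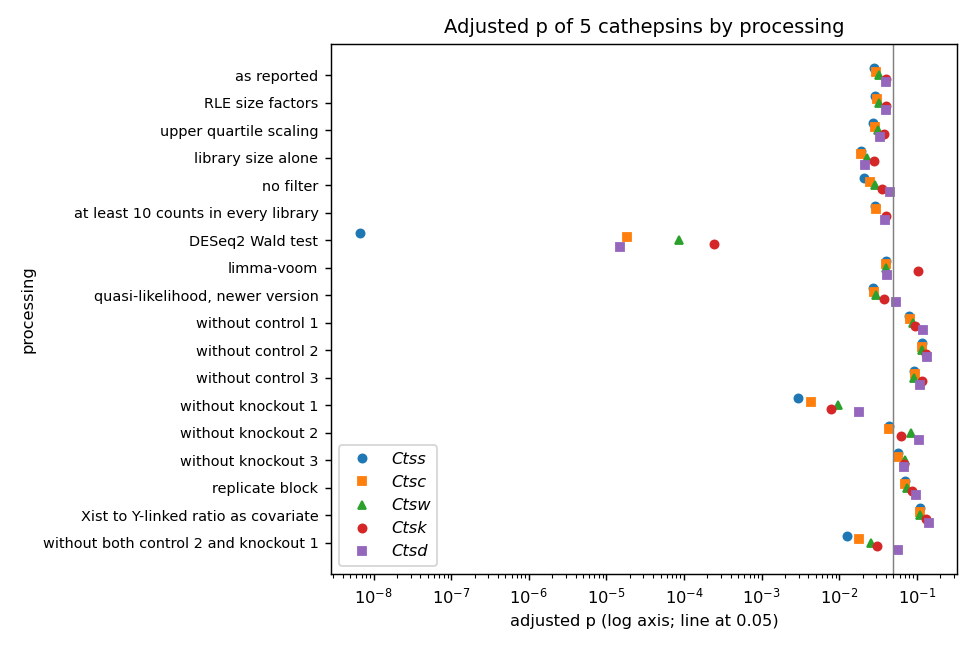
Adjusted p (log axis) of the 5 called cathepsins as reported and under each alternative processing, with a line at 0.05. The 5 lie between 0.0278 and 0.0396 as reported, close to the line, and cross it when any 1 control or knockout 3 is left out.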

How the data were processed

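RNA of 6 whole kidneys was measured by single-end sequencing of 100 bases. The authors called bases with CASAVA 1.8.2, trimmed with Trimmomatic, aligned to mm9 with TopHat 2.0.11 and used HTSeq to count the uniquely mapped reads of each gene. The authors deposited these as raw counts, with no normalization, in 1 table per genotype. The annotation and strand setting of the counting were not given in the sources used here, and the kit does not mark strand, so overlapping genes cannot be told apart in full. The study's own test was DESeq2.

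Groups and replicate numbers came from sample titles, in which no label pairs the mice. Genes were kept by filterByExpr (minimum count 10, minimum total 15), normalised by TMM and tested over all 6 libraries with edgeR 4.0.16 (glmQLFit, glmQLFTest, legacy version) in R 4.3.3, with no covariate. Calls have a Benjamini-Hochberg adjusted p under 0.05. SE is the log2 fold change divided by the square root of F, and 95% intervals use the degrees of freedom of the fit. Log2 ratios and correlations used a prior count of 2. The tests were tested on simulated data. Replicates differed by more than sampling noise (chi-square per degree of freedom 52.9 to 125.5). Intervals cover the spread between libraries, and counts carry no molecular identifiers.

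The 10 cathepsins, the lists and the marker genes were chosen with earlier results of these data known. Named genes are the cathepsins, tested members of these lists, Tfrc, Cdh16 (-0.26 on the log2 scale, adjusted p = 0.545), the 3 genes most like each cathepsin and genes that overlap a cathepsin. Lengths and coordinates are from GENCODE M1, and promoter sequence is from RefSeq. Alternatives were other scalings and filters, DESeq2 1.42.0, limma-voom (limma 3.58.1), the newer quasi-likelihood version, each library left out, the replicate number as a block and a covariate for sex-linked transcripts (log2 of Xist over the sum of 4 Y-linked genes). Leaving out control 2 and knockout 1 together, and the other transcript length, were chosen after seeing the data.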

Additional observations from a re-analysis of the deposited data

How the results depend on the processing

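The limits are few libraries, control 2 with its different sex-linked transcripts, knockout 1 lying between the groups and knockout 3 with fewest reads and most Rn45s. The fitted log2 fold changes of Ctss, Ctsc, Ctsk, Ctsw and Ctsd stayed above 0 in every alternative that tested them, and those of Ctsa, Ctsh and Ctsl stayed below 0 with none called. The calls of the 5 are less stable than their direction.

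Scaling, filtering and tool changed the number of cathepsins called from 5 to between 4 and 5: the filter of at least 10 counts in every library did not test Ctsw, limma-voom lost Ctsk, and the newer quasi-likelihood version lost Ctsd. A fold threshold of 2 also left 4, without Ctsd. DESeq2's Wald test called 5 cathepsins and 4882 genes against 2612 in edgeR. Leaving out 1 library at a time gave 0 to 5 cathepsins, 0 to 5332 genes and a leukocyte median of 1.60 to 2.85 (1.60 without knockout 2). Calls were lost without any 1 control, knockout 2 or knockout 3, and genes called rose without knockout 1, for which the cause was not tested. With the Xist to Y-linked ratio as covariate 0 cathepsins and 0 genes were called by edgeR, and the 5 kept an unadjusted p under 0.05. Without control 2 and knockout 1 together 4 cathepsins and 3473 genes were called.

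The replicate numbers did not pair the samples: the correlation of deviations was -0.13, 0.01 and 0.21 for numbers 1 to 3, and not every sample correlated best with its own number. With the replicate number as a block 0 cathepsins and 0 genes were called by edgeR, with adjusted p of the 5 from 0.0713 to 0.0974 and an unadjusted p under 0.05 in all 5.

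Among the 10 cathepsins, signs turned only in Ctsb and Ctsz, neither of which was called, and the cause was not tested. Ctsb was at -0.011 with the covariate and between -0.087 and 0.19 with 1 library left out (below 0 without knockout 2 or control 2). Ctsz was at 0.063 with upper quartile scaling, 0.26 with library size alone, 0.0062 with at least 10 counts in every library and between -0.10 and 0.14 with 1 library left out (above 0 without knockout 1 or control 3). Library size alone moved the median of all genes from 0.02 to 0.29, so values under that scaling are to be read against it. Relative to that median, Ctsz at 0.26 was below it.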
